A study of Mus musculus with 6 samples.

Results

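The genes of meiotic synapsis and recombination were followed in whole testes of wild-type (Wt) mice and of Dazap1 mutant mice. The members were 35 genes listed for this pathway, each read through the probe sets that the platform annotation assigns to its symbol alone. A probe set was found for 32 of the 35, out of 18193 genes so named in the series, and these 32 genes had 44 probe sets. Spata22, Hfm1 and Rnf212 had no such probe set and were not analysed here. The brightest probe set by mean log2 signal stood for a gene, and all 32 genes passed the filter on dim probe sets, which lay at a signal of 48.0.

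Total RNA of testes at postnatal day 21 (P21) was hybridised to Affymetrix Mouse Genome 430 2.0 arrays, 3 for wild-type and 3 for mutant mice, all of a mixed C57BL/6 and 129 strain background. The mutants were homozygous for the Floxed with Neo (Fn) allele, which is carried in every cell and makes an aberrant DAZAP1, a ubiquitous RNA-binding protein, with a segment inserted between its RNA recognition motifs. Homozygotes rarely live past birth and grow poorly when they do. The study names the possibility that spermatocytes of Fn testes at this age are at an earlier stage than those of Wt testes. It also states that at this age pachytene spermatocytes predominate in both genotypes and haploid spermatids are few or absent. Each array held a different RNA preparation and the animals behind each are not named, so p-values measure the spread between these preparations. In limma the spread of a probe set is drawn toward that of probe sets of similar signal. Values are MAS5 signals, on a linear scale for each probe set, and each change is the difference in mean log2 signal, Fn minus Wt, with its standard error (SE) and Benjamini-Hochberg adjusted p from limma, called at an adjusted p under 0.05. Signals were compared between arrays for the same probe set, and their level was not compared between genes.

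In meiotic prophase, SPO11 and its helpers cut the DNA, the recombinase DMC1 and its loading factors carry the broken ends to the homologous chromosome, and some of these exchanges are matured into crossovers by MutS and MutL homologs and their regulators. Meanwhile each chromosome forms a protein axis, and the axes of homologs are zipped together by the central region of the synaptonemal complex. Many of these genes are switched on as germ cells enter meiosis, and male mice that lack them often arrest in prophase.

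The members split in both directions. Of the 32 genes, 6 fell (18.8%) and 13 rose (40.6%) in Fn testes, beside 24.7% that fell and 44.9% that rose among all 13447 genes tested, and 13 members did not pass. Syce1, Psmc3ip and Spo11 were more than 2-fold lower, as were 13.9% of all genes. Mei4, Tex11, Rec114, Prdm9 and Dmc1 were more than 2-fold higher, as were 11.8% of all genes, and these 5 became 3 without Wt replicate 3. The 3 Fn values lay below the 3 Wt values in 8 members and above them in 14, beside 26.6% and 48.9% of all genes. The median change was 0.10 on the log2 scale, beside 0.32 for all genes, with a range from -1.53 for Syce1 to 1.39 for Mei4.

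The split between rises and falls depended on how the arrays were scaled. With each array centred on its median signal, 12 members were lower (37.5%, beside 27.4% of all genes) and 9 higher (28.1%, beside 33.1%), and the median change was -0.06 beside 0.17 for all genes. With centring on the 75th percentile, 10 were lower (31.2%, beside 28.04%) and 11 higher (34.4%, beside 37.7%), and the medians were -0.03 and 0.19. With quantile normalization, 6 were lower (18.8%, beside 25.8%) and 11 higher (34.4%, beside 40.5%). The share of members that fell thus lay below that of all genes under the deposited scaling and under quantile normalization, and above it under both centrings. The calls of 13 members held in each of the 18 settings that tested them, and these were the falls of Syce1, Psmc3ip, Spo11 and Mlh3 and the rises of Mei4, Tex11, Rec114, Prdm9, Dmc1, Tex15, Exo1, Syce2 and Trip13. The dim Mei4 was left untested by the strictest filter.

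**Figure D1:**
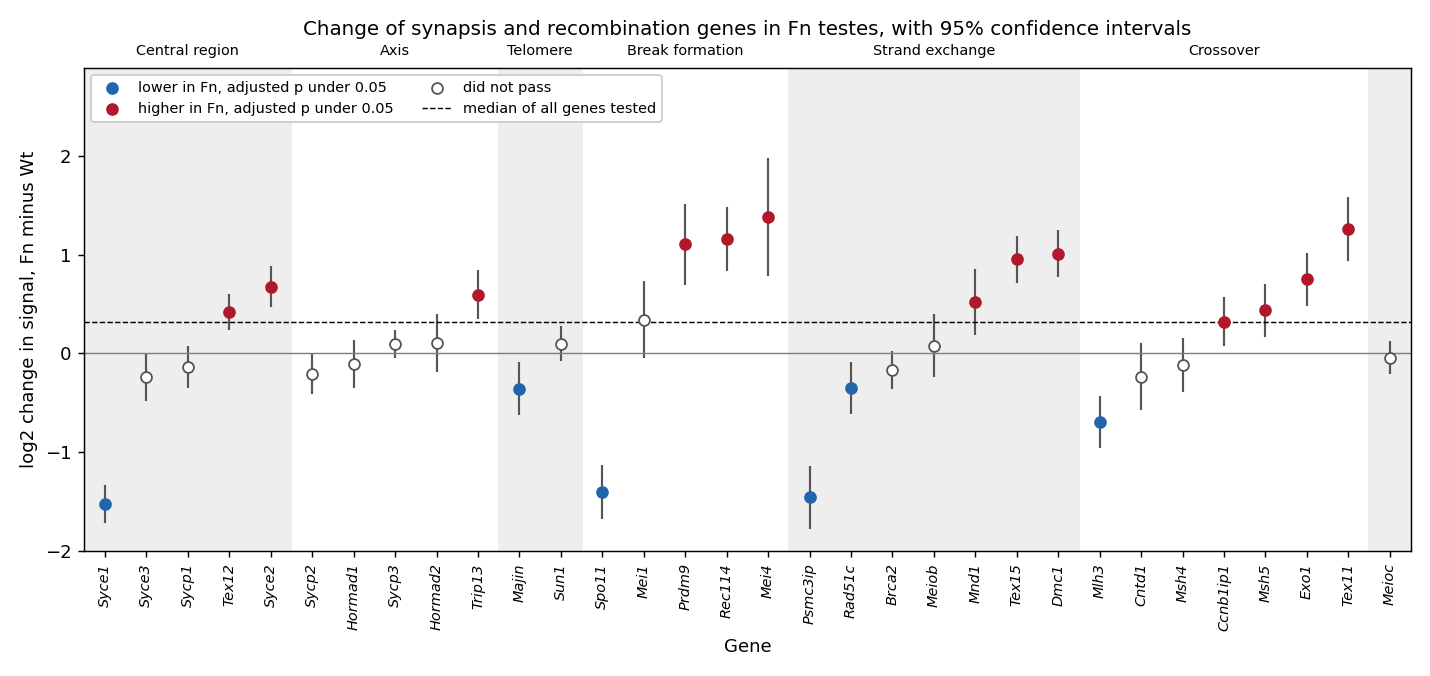
Changes in log2 MAS5 signal (Fn minus Wt, vertical axis) of the 32 genes, grouped by role, from 3 arrays per genotype. Bars give 95% confidence intervals from limma, filled points passed an adjusted p under 0.05, and the dashed line marks 0.32, the median over every gene tested. Break formation holds both Spo11 at -1.41 and Mei4 at 1.39.

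Markers of the cell types of the testis differed in signal between the genotypes, where 24.7% of all genes tested fell and 44.9% rose. Of 15 markers of pachytene and diplotene spermatocytes tested, 14 fell in Fn testes, and their summed signal was 115641 to 125190 in Wt and 35345 to 43910 in Fn arrays. All 10 round spermatid markers tested fell, and the sums over all 12 with a probe set were 25236 to 29764 in Wt and 2543 to 3187 in Fn arrays. Acrv1, Actl7a, Catsper1 and Catsper3, like Ccna1 among the spermatocyte markers, had Fn geometric means under the filter level of 48.0. These markers entered the test through their Wt values, so their falls give no support of their own. Piwil1, Ccna1, Ovol1, Tdrd7 and Spata16 are among genes that the study had already picked as decreased on these arrays. The falls of those genes give no independent support either. Of markers of undifferentiated spermatogonia, 6 of 8 rose and 1 fell, with overlapping sums of 7830.2 to 8256 and 7725 to 8639.6. Most of these sums came from Id4, the 1 that fell, with means of 5400 in Wt and 3626 in Fn arrays. Of differentiating spermatogonia, 7 of 8 rose and 1 fell, with sums of 11988 to 12901 and 13446 to 14102. Dmrtb1, the 1 that fell, had means of 5509 in Wt and 663.7 in Fn arrays. Spermatogonial markers thus mostly gained signal where markers of later germ cells lost it.

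Most markers of Sertoli, peritubular and Leydig cells rose. Of macrophage markers tested 42.9% rose and of endothelial markers 28.6%, beside 44.9% of all genes tested. Of Sertoli cell markers 12 of 13 rose, with sums of 43352 to 50639 in Wt and 72341 to 73462 in Fn arrays, and of peritubular myoid and stromal cell markers 10 of 11 rose, with sums of 26664 to 35737 and 57959 to 60861. Of Leydig cell markers 4 of 6 rose (7031 to 10961 and 7455 to 13690.4), of macrophage markers 3 of 7 tested rose and 1 fell (3153 to 3968 and 4001 to 5153, over 8 markers), and of endothelial markers 2 of 7 rose (719.8 to 834.7 and 1069.5 to 1099). No marker was at 0 on any array. In whole testes, fewer cells of a type and less RNA per cell cannot be told apart, and the part of these shifts in the values that follow was not tested. Dazap1 itself had signals of 4323, 4462 and 5046 in Wt and 2538, 2735 and 2819.8 in Fn arrays, a fall of 0.77 ± 0.088 (log2 ± SE, limma adjusted p = 6.7e-05), and the position of its probe set relative to the insertion was not determined.

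Upstream sequences of 6 members are shown to let promoter elements be read beside the changes, with genes that fell (Syce1, Psmc3ip), rose (Dmc1, Rec114, Syce2) or did not pass (Sycp3). RefSeq promoters on mouse build GRCm38.p6 were listed for 29 of the 35 members. None was listed for Spo11 and Majin, which fell, for Tex11, Tex15 and Exo1, which rose, or for Meiob. Motifs were sought on both strands from 250 bases before to 50 bases after each start. The 250 bases before the start are printed 5′ to 3′ on the strand of the gene. Capitals mark the E2F site TCCCGC, or GCGGGA on the opposite strand, and the E-box CACGTG. The stretches are chr7:140787855-140788104 on the minus strand for Syce1, chr11:101095436-101095685 on the minus strand for Psmc3ip, chr15:79605110-79605359 on the minus strand for Dmc1, chr9:58741560-58741809 on the minus strand for Rec114, chr8:84872008-84872257 on the plus strand for the downstream of the listed Syce2 starts, and chr10:88459337-88459586 on the plus strand for Sycp3.
Syce1: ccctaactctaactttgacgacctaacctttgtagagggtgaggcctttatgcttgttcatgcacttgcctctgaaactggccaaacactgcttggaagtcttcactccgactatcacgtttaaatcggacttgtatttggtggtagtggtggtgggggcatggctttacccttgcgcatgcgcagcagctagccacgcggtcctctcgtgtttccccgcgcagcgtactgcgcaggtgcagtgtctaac
Psmc3ip: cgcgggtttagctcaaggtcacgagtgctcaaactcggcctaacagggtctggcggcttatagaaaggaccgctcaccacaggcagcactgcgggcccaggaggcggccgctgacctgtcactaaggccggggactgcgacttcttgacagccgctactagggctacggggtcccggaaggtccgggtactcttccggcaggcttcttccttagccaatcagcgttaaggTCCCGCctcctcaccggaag
Dmc1: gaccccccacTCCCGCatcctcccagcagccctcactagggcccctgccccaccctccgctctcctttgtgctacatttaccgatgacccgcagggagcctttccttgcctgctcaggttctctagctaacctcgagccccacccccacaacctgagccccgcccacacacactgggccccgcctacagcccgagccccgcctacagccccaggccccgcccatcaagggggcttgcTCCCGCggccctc
Rec114: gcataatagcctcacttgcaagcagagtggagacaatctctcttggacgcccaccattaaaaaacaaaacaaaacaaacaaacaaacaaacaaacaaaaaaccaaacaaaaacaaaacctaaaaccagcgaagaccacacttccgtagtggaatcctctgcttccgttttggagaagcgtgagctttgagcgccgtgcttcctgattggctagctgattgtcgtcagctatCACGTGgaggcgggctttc
Syce2: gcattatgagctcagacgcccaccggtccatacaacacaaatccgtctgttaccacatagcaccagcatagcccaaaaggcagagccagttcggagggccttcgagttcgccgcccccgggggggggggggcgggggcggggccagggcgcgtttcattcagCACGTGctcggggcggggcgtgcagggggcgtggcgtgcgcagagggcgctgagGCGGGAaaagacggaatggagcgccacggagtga
Sycp3: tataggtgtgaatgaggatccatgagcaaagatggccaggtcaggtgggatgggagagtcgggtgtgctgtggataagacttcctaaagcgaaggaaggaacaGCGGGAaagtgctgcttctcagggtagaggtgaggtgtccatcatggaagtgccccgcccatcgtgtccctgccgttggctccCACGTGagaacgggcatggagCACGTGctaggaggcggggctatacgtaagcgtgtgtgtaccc

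E2F6 and the E-box factor MGA are known members of a repressive complex that keeps many germ line genes silent in other cells. The E2F site was present in 19 of the 29 genes (65.5%), beside 38.5% of the 10881 tested genes with a listed promoter and 22.1% of all 27025 genes in the table. The E-box was present in 8 (27.6%, beside 11.5% and 8.09%), and the motif CNCCTCAG, described for the meiotic inducer STRA8, also in 8 (27.6%, beside 11.1% and 9.12%). Median GC content was 60.7% for member promoters, 60.3% for those of genes tested and 52.7% for all promoters. These shares are descriptions and were not tested. Among genes with a listed promoter, the E2F site was found in 8 of the 10 that rose, including Dmc1, Rec114, Syce2 and Tex12. It was found in 2 of the 4 that fell, Psmc3ip and Rad51c, and in 6 of the 12 that did not pass. In Rec114 its match lies after the start and so outside the letters shown.

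MYB proteins, which include the pachytene regulator MYBL1, bind CAACTG or CAACGG or TAACTG or TAACGG. Such a site was present in 10 members (34.5%, beside 29.6% of genes tested and 31.1% of all genes), of which 8 did not pass, among them Sycp1, Sycp3 and Meioc, and 2 rose, Ccnb1ip1 and Msh5. It was present in 0 of the 4 genes with a listed promoter that fell. The core TGACG of the CRE, bound by CREM and its relatives, was present in 9 (31.0%, beside 34.0% and 23.0%), Syce1 among them. Matches to the STRA8 motif overlapped the E2F site in Prdm9 and Syce2 and the CRE core in Msh5.

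The central region of the synaptonemal complex held a large fall beside rises. Syce1 encodes a central element protein that binds the ends of the transverse filaments. Its signals were 9387, 10536 and 11215 in Wt and 3595, 3802 and 3392 in Fn arrays. The groups were far apart, and the fall of 1.53 ± 0.084 (log2 ± SE, limma adjusted p = 7.0e-07) was the largest among the members by the probe sets that stand for them, since the second probe set of Psmc3ip fell further. Syce2 and Tex12 encode proteins that assemble into the fibres of the central element. Syce2 had 4574, 4415 and 3621 in Wt and 6609, 6812 and 6645 in Fn arrays, a rise of 0.68 ± 0.094 (limma adjusted p = 2.1e-04). Tex12 had 3827, 3693 and 3531 in Wt and 5029, 4529 and 5213 in Fn arrays, a rise of 0.42 ± 0.081 (limma adjusted p = 0.0015), which lost its call when arrays were centred on their medians (limma adjusted p = 0.080). In both genes every Fn value lay above every Wt value.

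The remaining central region genes did not pass. Sycp1, the transverse filament that spans the gap between the axes, had 8212, 7455 and 6531 in Wt and 7036, 6113 and 6931 in Fn arrays. These groups overlapped, and the difference of -0.14 had a 95% confidence interval of -0.36 to 0.07. It was -0.30 (limma adjusted p = 0.048) with arrays centred on their medians and -0.27 (0.026) on their 75th percentiles, and it changed sign with quantile normalization. Syce3, which links SYCP1 to the central element, had 2886, 3121 and 3119.9 in Wt and 2216, 2677 and 2873 in Fn arrays. The highest Fn value lay just below the lowest Wt value, and the difference of -0.24 ± 0.11 (limma adjusted p = 0.074) passed with centring on the median (-0.40, 0.027) or the 75th percentile (-0.37, 0.014), with array weights (0.016), with the replicate number as a block (0.035) and without Fn replicate 3 (0.030).

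On the chromosome axis only Trip13 rose among 5 genes, and the other 4 did not pass, where 44.9% of all genes tested rose. Sycp3, the main filament protein of the axis, had 11923, 12050.4 and 11147 in Wt and 12704, 12929 and 11881 in Fn arrays. The groups overlapped, with a difference of 0.10 and a 95% confidence interval of -0.04 to 0.23, and its sign turned with arrays centred on their medians. Its partner Sycp2 had 7372, 8099.9 and 7123 in Wt and 6455, 7353 and 5831 in Fn arrays. The difference of -0.21 ± 0.094 (limma adjusted p = 0.080) passed with centring on the median (-0.37, 0.0052) or the 75th percentile (-0.34, 0.013), with array weights (0.031), with the replicate number as a block (0.020) and without Fn replicate 2 (0.017). Hormad1 and Hormad2 encode proteins that mark axes not yet synapsed. Their differences were -0.11 and 0.10, with 95% confidence intervals of -0.35 to 0.13 and -0.19 to 0.40, and both changed sign with quantile normalization. With arrays centred on their medians Hormad1 passed, at -0.27 (limma adjusted p = 0.044). Trip13, the ATPase that removes HORMA domain proteins from synapsed axes, had 1217, 1191 and 1004 in Wt and 1779.6, 1784 and 1582 in Fn arrays. Its groups did not overlap, and it rose by 0.60 ± 0.11 (limma adjusted p = 0.0012).

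Telomeres are tethered to the nuclear envelope in prophase, where chromosomes move and pair. Majin, a membrane-bound part of that tether, had 964.9, 1053.9 and 961.1 in Wt and 723.7, 888.1 and 719.8 in Fn arrays. Its fall of 0.36 ± 0.12 (limma adjusted p = 0.025) lost its call without Wt replicate 2 (0.084), Fn replicate 1 (0.094) or Fn replicate 3 (0.073). Sun1, an envelope protein also made outside the germ line, did not pass, at 0.10 with a 95% confidence interval of -0.08 to 0.28. Meioc sustains the prophase programme together with YTHDC2. It had 3077, 2886 and 2861 in Wt and 2845, 2880.4 and 2842 in Fn arrays, nearly level, with a difference of -0.04 and a 95% confidence interval of -0.21 to 0.13.

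Among 5 genes of double-strand break formation, Spo11 fell and Mei4, Rec114 and Prdm9 rose, where 24.7% of all genes tested fell and 44.9% rose. Spo11 encodes the subunit that cuts the DNA. Its signals were 2401, 2634 and 2851 in Wt and 882.8, 1148.5 and 954.5 in Fn arrays. The groups were far apart, and the fall was 1.41 ± 0.12 (log2 ± SE, limma adjusted p = 1.1e-05). MEI4 and REC114 are axis-bound partners that SPO11 needs for cutting. Rec114 had 361.4, 310.2 and 261.1 in Wt and 683.2, 704 and 678.1 in Fn arrays, a rise of 1.16 ± 0.14 (limma adjusted p = 1.1e-04). Mei4 was dim, with 118.4, 76.4 and 59.3 in Wt and 240.6, 190.4 and 210.3 in Fn arrays, a rise of 1.39 ± 0.27 (limma adjusted p = 0.0015). In neither gene did the groups overlap, and the larger error of Mei4 came with a wide spread of its Wt values.

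PRDM9 is the histone methyltransferase that sets where breaks are made. Prdm9 had 138, 147.2 and 107.8 in Wt and 280.9, 308.7 and 253.8 in Fn arrays, a rise of 1.11 ± 0.18 (limma adjusted p = 6.0e-04). Mei1, also required for breaks, had 288.9, 297.6 and 260.9 in Wt and 280.3, 399.9 and 409.1 in Fn arrays. Fn replicate 1 lay among the Wt values and the other Fn arrays above them, and the difference of 0.34 ± 0.17 (limma adjusted p = 0.11) became 0.52 without Fn replicate 1 (0.025). Spo11 thus lay below its Wt level and Prdm9, Rec114 and Mei4 above theirs.

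Strand exchange also held both directions, with Psmc3ip and Rad51c lower, Dmc1, Tex15 and Mnd1 higher and Brca2 and Meiob not passing. Dmc1 encodes the meiosis-specific recombinase. Its signals were 868.7, 920.8 and 852.8 in Wt and 1584, 1873 and 1886 in Fn arrays, a rise of 1.01 ± 0.11 (limma adjusted p = 4.2e-05). Tex15, needed to load recombinases onto breaks, had 2326, 1888 and 2001 in Wt and 4246, 4170.3 and 3606 in Fn arrays, a rise of 0.95 ± 0.11 (limma adjusted p = 5.7e-05). In both genes the lowest Fn array stood well above the highest Wt array.

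Psmc3ip encodes HOP2, which acts with MND1 as a heterodimer that stimulates DMC1. It had 4550.4, 5441 and 5154 in Wt and 1868, 2229.5 and 1467 in Fn arrays, a fall of 1.46 ± 0.14 (limma adjusted p = 2.7e-05). Mnd1 went the other way, with 192.5, 180.9 and 181.5 in Wt and 244.6, 271.9 and 282.3 in Fn arrays. Its rise of 0.52 ± 0.15 (limma adjusted p = 0.012) lost its call with quantile normalization (0.055) and with centring on the median (0.098). Rad51c, a gene of recombinational repair, had 878.1, 921.7 and 1001.3 in Wt and 702.8, 814.4 and 676.2 in Fn arrays. The groups did not overlap, but the fall of 0.36 ± 0.12 (limma adjusted p = 0.024) lost its call without Wt replicate 2 (0.054), Wt replicate 3 (0.069), Fn replicate 1 (0.081) or Fn replicate 3 (0.072). Brca2, which delivers recombinases to single-stranded DNA, had a difference of -0.17 and a 95% confidence interval of -0.36 to 0.02, and it passed with centring on the median (-0.33, limma adjusted p = 0.041) or the 75th percentile (-0.30, 0.013). Meiob, a single-strand binding factor, had 0.08 and an interval of -0.24 to 0.40, with Wt replicate 1 at 2149 above its other arrays, and its sign turned without Wt replicate 2 and with either centring.

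Among 7 crossover genes, Mlh3 fell and Tex11, Exo1, Msh5 and Ccnb1ip1 rose, where 24.7% of all genes tested fell and 44.9% rose. Mlh3 encodes a subunit of the nuclease that resolves joint molecules into crossovers. Its signals were 835.3, 884.1 and 915.1 in Wt and 497.3, 596.7 and 536 in Fn arrays, a fall of 0.70 ± 0.12 (limma adjusted p = 6.6e-04). Exo1, whose product works with that nuclease, had 768, 805.7 and 647.3 in Wt and 1338, 1184.5 and 1202 in Fn arrays, a rise of 0.75 ± 0.12 (limma adjusted p = 4.7e-04). Neither gene had overlapping groups, and they moved in opposite directions. Tex11, an X-linked gene for a synapsis and crossover factor, had 619, 597.3 and 439.4 in Wt and 1417, 1288 and 1233 in Fn arrays. This rise of 1.26 ± 0.15 (limma adjusted p = 7.4e-05) was exceeded among the members only by that of Mei4.

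MSH4 and MSH5 form the clamp that protects crossover intermediates. Msh5 had 320.6, 325.8 and 329 in Wt and 440.6, 436.6 and 441.8 in Fn arrays. Its rise of 0.44 ± 0.12 (limma adjusted p = 0.011) lost its call with quantile normalization (0.053) and with centring on the median (0.14) or the 75th percentile (0.052). Msh4 had a difference of -0.11 and a 95% confidence interval of -0.39 to 0.16. Ccnb1ip1, the gene of the ligase HEI10, had 1270.4, 1485 and 1254 in Wt and 1675, 1824 and 1514 in Fn arrays. Its rise of 0.32 ± 0.11 (limma adjusted p = 0.029) was of the size of the median of all genes, and it lost its call with centring on the median (0.28) or the 75th percentile (0.17) and without Wt replicate 1 (0.088), Wt replicate 3 (0.080), Fn replicate 1 (0.080) or Fn replicate 2 (0.098).

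**Figure D2:**
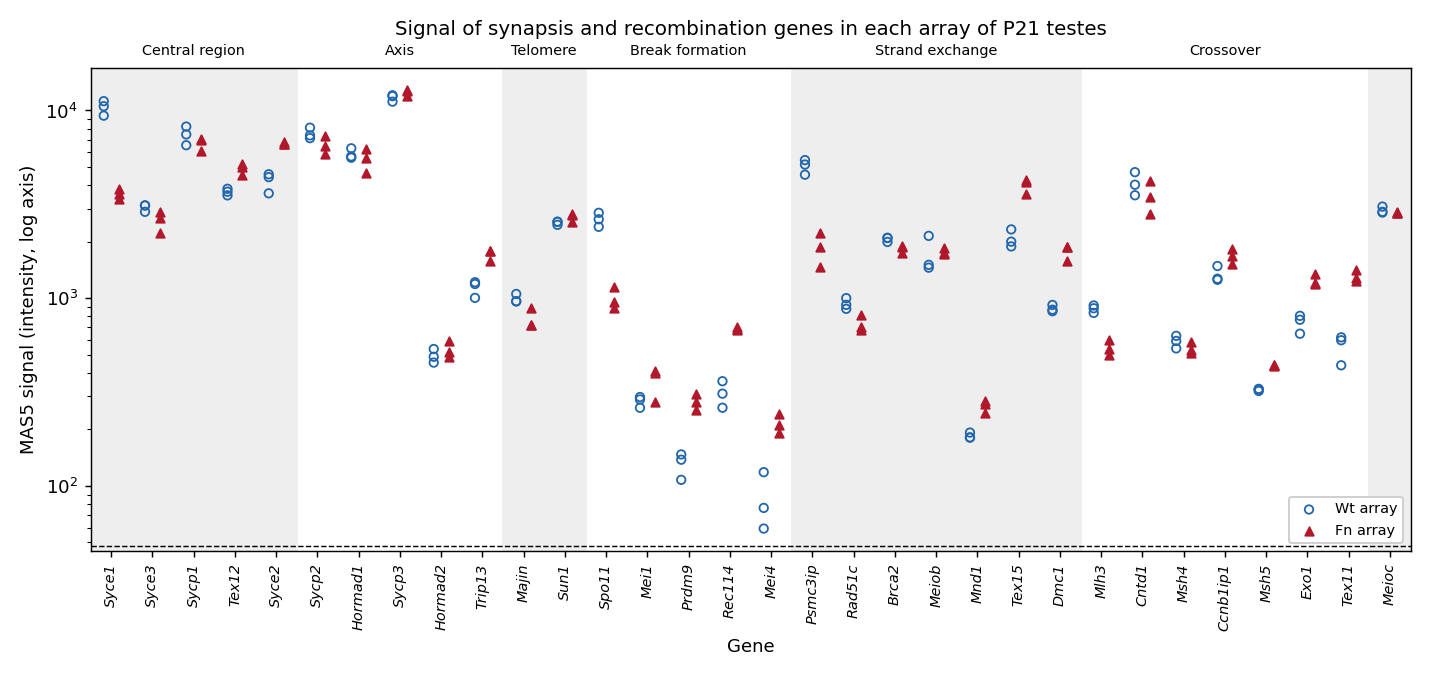
MAS5 signals (log axis) of the 32 genes by role, with a circle for each Wt array and a triangle for each Fn array. The dashed line is the filter at 48.0. The genotypes stand apart for Syce1, Spo11 and Psmc3ip and overlap for Sycp1, Sycp3 and Meioc.

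Cntd1, a cyclin relative required for crossover maturation, was read differently by its 3 probe sets. The brightest, of the class that Affymetrix marks as able to bind other transcripts, had 4024, 4694 and 3535 in Wt and 3446, 4219.9 and 2818 in Fn arrays. It did not pass, at -0.23 ± 0.15 (limma adjusted p = 0.20), but did with centring on the median (-0.39, 0.024), with the replicate number as a block (0.023) and without Fn replicate 2 (0.034). The others fell, by 0.55 (limma adjusted p = 6.9e-04) and 0.43 (0.0024), and the mean of the 3 fell by 0.40 (0.0060). In Dmc1 (1.01 and 1.13), Msh5 (0.44 and 0.46), Psmc3ip (-1.46 and -1.67), Trip13 (0.60 and 0.54) and Exo1 (0.75 and 0.43) each probe set tested passed in the same direction. The second probe set of Rec114 was under the filter level in all Wt arrays (36.4, 39.9 and 38.2) and above it in all Fn arrays (106.9, 88.4 and 100.3), so it entered the test through its Fn values and gives no support of its own. In Rad51c the second did not pass, at -0.32 beside -0.36, and in Sun1 neither passed and their signs differed, at 0.10 and -0.11.

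**Figure D3:**
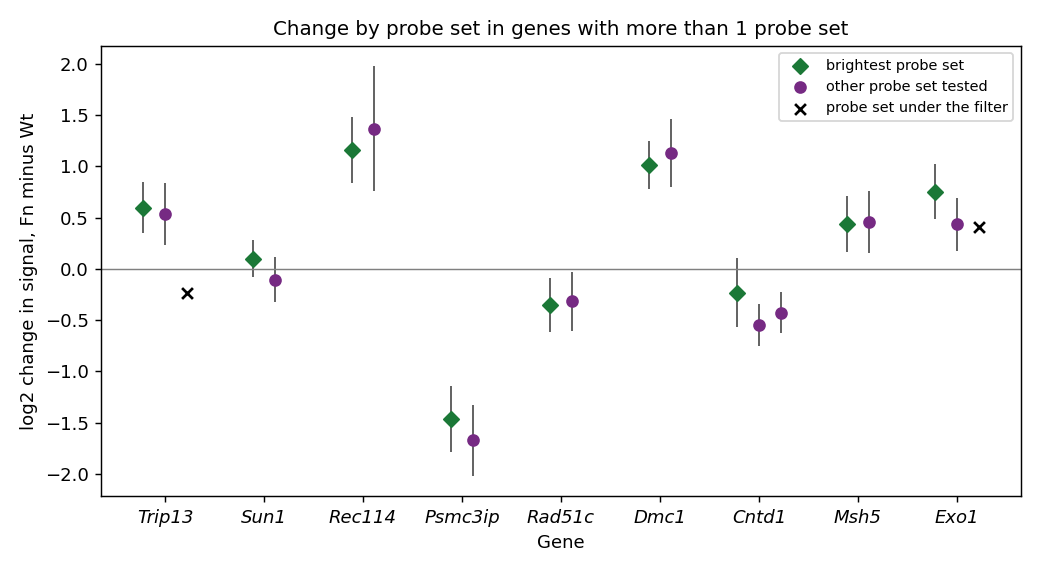
Changes in log2 MAS5 signal (Fn minus Wt) of each probe set of the 9 members with more than 1, with bars for 95% confidence intervals from limma. Diamonds stand for the gene, circles are further probe sets tested, and crosses are those under the filter. Both probe sets of Psmc3ip lie near -1.5, and those of Cntd1 lie between -0.55 and -0.23.

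Proteins of this pathway often work in pairs, and 6 pairs of partners or paralogs were compared by the ratio of their signals within an array, which centring of an array cannot alter and quantile normalization can. With 3 arrays against 3, the exact two-sided permutation test cannot give a p under 0.10, so that no pair could pass. Relative to the Wt mean, the log2 ratio of Psmc3ip to Mnd1 was -0.20, 0.14 and 0.06 for Wt and -1.83, -1.73 and -2.39 for Fn. Its difference of -1.99 was the widest of the 6 (exact permutation p = 0.10, or 0.15 adjusted over the 6 pairs). The genes of the HOP2 and MND1 heterodimer were thus the pair that stood furthest apart. The difference was -0.55 for Msh4 to Msh5, -0.30 for Sycp2 to Sycp3 and 0.26 for Syce2 to Tex12, each with no overlap between genotypes and the same p. For Mei4 to Rec114 (0.23) and Hormad1 to Hormad2 (-0.21) the arrays overlapped (exact permutation p = 0.30 for each). Between arrays of the same replicate number, the Fn ratio of Mei4 to Rec114 was higher in 3 of 3 pairs, and that of Hormad1 to Hormad2 in 1 of 3. With quantile normalization, chosen for the pairs after seeing the data, the differences of Sycp2 to Sycp3 and of Hormad1 to Hormad2 became -0.18 and 0.05, and that of Psmc3ip to Mnd1 was -1.77.

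**Figure D4:**
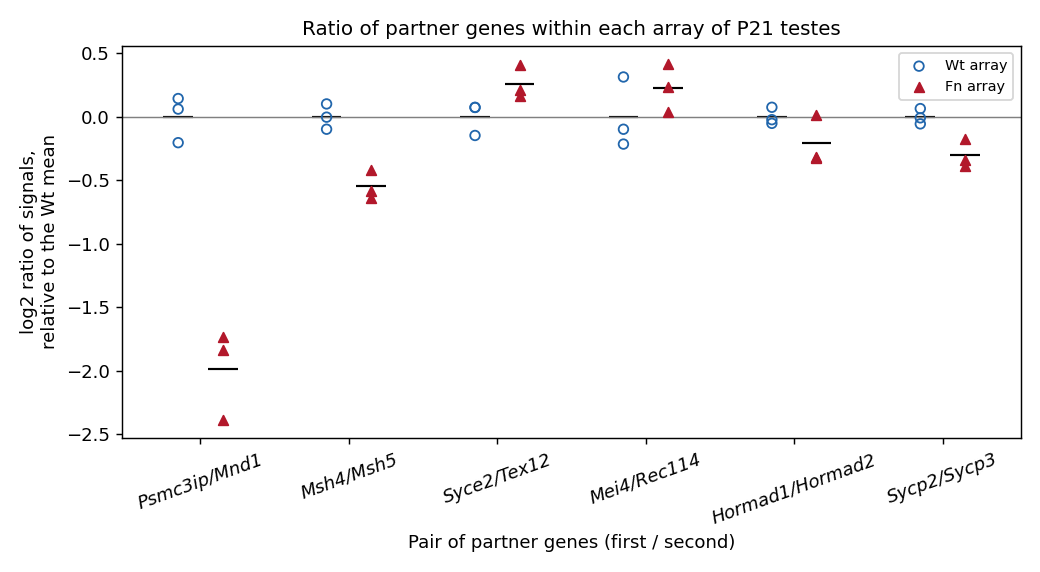
Log2 ratio of partner genes within each array, set to 0 at the Wt mean of the pair, with a circle per Wt array, a triangle per Fn array and a short line at each mean. The Fn arrays of Psmc3ip/Mnd1 lie from -2.39 to -1.73, and those of the other 5 pairs from -0.64 to 0.42.

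Further genes of the pathway were split as well. Of 22 other genes that act with the members in meiotic prophase, 9 had a probe set and were tested. Of these 4 fell and 4 rose (44.4% each, beside 24.7% and 44.9% of all genes tested). Those that rose included Skp1 (0.24), a ubiquitin ligase subunit of all cells. Hsf2bp, whose product recruits BRCA2 to meiotic breaks, went from 2502 ± 110.2 to 1326 ± 73.5 (SD, 3 arrays each), a fall of 0.92 (limma adjusted p = 2.8e-05). The gene of its partner BRME1 (4930432K21Rik in the annotation) fell by 1.13 and the telomere tether gene Terb2 by 0.98. Stra8, the inducer of meiotic entry and also among the spermatogonial markers above, rose by 1.16. The central element gene Six6os1 (4930447C04Rik) rose by 0.55 and Ythdc2, an RNA helicase that promotes meiotic entry, by 0.52.

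A list of 34 genes shared with mitotic cells held recombination proteins and the envelope protein gene Sun2. Of these, 29 were tested, of which 8 fell and 8 rose, or 27.6% each. Among all genes tested 24.7% fell and 44.9% rose. Slx4, the scaffold of structure-specific nucleases, had 1756.5, 1749 and 2126 in Wt and 407.8, 434.2 and 444.7 in Fn arrays. No member fell as far as its 2.12 ± 0.12 (limma adjusted p = 6.6e-07). Rpa1 and Rpa2 encode subunits of the same single-strand binding complex, and Rpa1 fell by 1.09 whereas Rpa2 rose by 0.62. Zswim7, a gene of homologous recombination, fell by 0.79. The MutL homolog gene Pms2 rose by 0.97. Sun2, a relative of Sun1, rose from 1497 ± 170.2 to 2986 ± 238.5 (SD, 3 arrays each, limma adjusted p = 5.1e-05).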

How the data were processed

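The deposited intensity values are linear MAS5 signals as the authors made them, with a trimmed mean of 498.4 to 498.6 on each array. The submitters' processing notes name MAS5, its version not given in the sources used here. The study's methods name GeneSpring, and its text a criterion of more than 2-fold with no test. Here, log2 intensity (a value of 0 set to 0.1) was fitted with limma 3.58.1 (intensity trend) in R 4.3.3, Fn against Wt, on the 27022 of 45037 probe sets at or above the 40th percentile of mean log2 signal. P-values were adjusted over all 27022 probe sets tested. The brightest probe set naming a gene alone then represented it, which left 13447 genes tested. Precision is limited by the number of arrays. The fit was tested on simulated data.

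Members and lists were chosen with earlier results of these data known. Named were all members, Dazap1 and, in both further pathway lists, the 3 genes of smallest p in each direction. No array was a copy of another, since Spearman correlations within a genotype were 0.951 to 0.961. Both genotypes carry replicate numbers 1 to 3. After subtracting group means, Wt and Fn arrays sharing a number correlated at 0.13, 0.12 and 0.16 and the others at -0.15 to 0.04. On that basis alone the numbers were treated as pairs in the alternative with a block and in the counts of same-number ratios. The main fit and the permutation test were unpaired. Alternatives changed the scaling, filter, pseudocount, prior variance, array weights, choice of probe set and block, or omitted an array.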

Additional observations from a re-analysis of the deposited data

How the results depend on the processing

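With arrays centred on their medians, 12 members were lower in place of 6, 3 in place of 5 were more than 2-fold higher, 2 in place of 4 of the other prophase genes were higher, and the medians were -0.061 for the members and 0.17 for all genes. With centring on the 75th percentile, 10 members were lower, 3 were more than 2-fold higher, and the medians were -0.032 and 0.19. Signs turned only in genes that did not pass. They were Sycp3 (-0.064 and -0.034 with the 2 centrings), Hormad2 (-0.056 and -0.026), Meiob (-0.079 and -0.050) and Sun1 (-0.059 and -0.030), with quantile normalization Sycp1 (0.0011), Hormad1 (0.019), Hormad2 (-0.027) and Meioc (0.033), and with the mean of probe sets Sun1 (-0.0028). With 1 array left out, lower members numbered 4 to 8, higher members 12 to 13 and members more than 2-fold higher 3 (without Wt replicate 3) to 6, the members' median was 0.05 to 0.14, Hormad1 ranged from -0.20 to 0.010 and Meiob from -0.023 to 0.26. With the replicate number as a block, 9 members were lower and 13 higher, with Sycp2, Syce3 and Cntd1 added, and no other member's call changed. With quantile normalization, an alternative added after seeing the data, the pair differences were 0.047 for Hormad1 to Hormad2 and -0.18 for Sycp2 to Sycp3. Causes were not tested. Dim probe sets limit Mei4 most, which the filter at the 60th percentile removed.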
